A study of Mus musculus with 5 samples.

Results

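The heat shock and chaperone genes Hspa1a, Hspa1b, Hspa8, Hspa5, Hsp90ab1, Hsp90aa1 and Dnajb1 were examined as 7 genes in 6 fixed windows of the mouse genome (build mm9), Hspa1a and Hspa1b sharing 1 window. A listed peak was taken as a member when it overlapped a window by 1 bp or more. The 4 peak lists gave 45 such peaks out of 32456. They were 13 of 7718 RNA polymerase II (RNAPII) peaks, 8 of 10782 NELF-A peaks, 6 of 3925 NELF-B peaks and 18 of 10031 DRIP peaks. Gene positions in mm9 were not used here, so a peak was tied to a window and not to an exon or a start site.

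All lists came from epithelial cells freshly isolated from the mammary glands of virgin mice, 6 to 8 weeks old and of strain labelled mixed, and no genotype, treatment or time separates them. The glands had been digested with collagenase and hyaluronidase, and the organoids then with trypsin and dispase, before chromatin or DNA was taken. RNAPII, NELF-A and NELF-B were mapped by ChIP-seq and R-loops, which are hybrids of RNA with its DNA template, by DRIP-seq, an immunoprecipitation of DNA with an R-loop antibody. A further sample, DRIP-seq after RNase H, was not analysed here, so sensitivity of these DRIP peaks to RNase H was not tested. Each target had 1 list, and the labels of the RNAPII and DRIP lists name 2 libraries behind each, so no value below has a replicate error and no test was made. The authors' score per peak has no stated unit and was used only to rank peaks within 1 list. In a bulk population a low score in all cells and a high score in few cells cannot be told apart. The epithelial identity of the cells was not checked against marker genes, for the same want of mm9 gene positions.

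Heat shock proteins are chaperones that help other proteins fold and keep damaged ones from clumping. Hspa1a and Hspa1b encode the stress-inducible Hsp70, Hspa8 the constitutive Hsc70 and Hspa5 the Hsp70 of the endoplasmic reticulum, known as BiP. Hsp90aa1 and Hsp90ab1 encode the inducible and the constitutive cytosolic Hsp90, and Dnajb1 encodes Hsp40, a co-chaperone that stimulates the ATPase of Hsp70. Heat shock genes are a classic example of promoter-proximal pausing, in which NELF holds RNAPII shortly after initiation until a signal releases it. The transcription factor HSF1 acts on the cytosolic genes through heat shock elements, and the unfolded protein response acts on Hspa5 through ER stress elements.

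Promoter sequences of 4 of the 7 genes (Hspa1a, Hspa1b, Hspa5 and Dnajb1) were in the RefSeq table, which is of build GRCm38.p6 and holds 250 bases before and 50 bases after each start. Their coordinates cannot be compared with those of the peaks. Of these, 3 promoters are shown, the Hspa1 pair because its near identity limits what the peaks of that window can say about either gene, and Hspa5 for its ER stress element. Hspa1b lies at chr17:34959189-34959488 and Hspa1a at chr17:34972107-34972406, both on the minus strand, and Hspa5 at chr2:34771840-34772139 on the plus strand, each printed along its gene's own strand. Capitals mark a pair of heat shock units (GAANNTTC or TTCNNGAA) in the Hspa1 genes and the ER stress element, CCAAT and CCACG with 9 bases between, in Hspa5.
Hspa1b: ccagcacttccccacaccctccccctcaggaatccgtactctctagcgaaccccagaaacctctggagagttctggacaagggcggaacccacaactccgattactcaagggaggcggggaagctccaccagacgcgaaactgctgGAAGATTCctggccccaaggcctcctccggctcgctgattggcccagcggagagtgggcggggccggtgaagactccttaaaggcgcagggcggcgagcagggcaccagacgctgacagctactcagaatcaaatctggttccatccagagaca
Hspa1a: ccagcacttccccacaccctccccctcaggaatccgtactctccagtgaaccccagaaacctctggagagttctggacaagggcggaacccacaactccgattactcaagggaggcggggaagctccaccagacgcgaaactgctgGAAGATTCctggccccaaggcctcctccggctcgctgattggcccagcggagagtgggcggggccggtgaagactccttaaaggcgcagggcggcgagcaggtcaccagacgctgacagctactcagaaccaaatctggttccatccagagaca
Hspa5: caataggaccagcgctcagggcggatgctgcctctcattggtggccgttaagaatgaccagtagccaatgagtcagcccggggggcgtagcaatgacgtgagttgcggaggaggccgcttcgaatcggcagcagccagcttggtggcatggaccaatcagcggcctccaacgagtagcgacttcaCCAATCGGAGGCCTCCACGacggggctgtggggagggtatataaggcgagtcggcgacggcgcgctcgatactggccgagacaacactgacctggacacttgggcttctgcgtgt

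The promoters of Hspa1b and Hspa1a were identical at 296 of 300 positions (98.7%), with 201 bases as the longest stretch without a difference. Counted from 1 at the first printed base, from Hspa1b to Hspa1a the differences were T44C, C47T, G249T and T276C. Reads from such stretches cannot be assigned to 1 copy with certainty, and how they were treated is not given in the sources used here. The heat shock pair stood at bases -104 to -97 from the start in both copies. On either strand such a pair was found in 15.1% of 32851 promoters, so its presence alone is common, and none of the 5 promoter entries of these 4 genes held 3 alternating units, which 0.603% of all promoters did.

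The ER stress element of Hspa5 lay at -65 to -47 and was the single match to this motif in the 4 genes, against 0.119% of all promoters. Hspa5 also held 4 matches to CCAAT, 1 of them part of that element, and CCAAT alone occurred in 37.4% of promoters. The sequence TATAAA was found in none of the 5 entries and in 13.6% of all. Dnajb1 had 2 entries, with G and C making up 70.7% and 68.3% of bases, and no heat shock pair. The G and C share was 61% for both Hspa1 genes and 61.3% for Hspa5, against a median of 52.7% over all promoters. Only exact matches to these patterns were searched, so variant forms of a motif were not counted and a missing match does not show that the element is absent. A match describes these letters only and shows no binding.

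RNAPII, NELF-A and DRIP peaks were listed in all 6 windows and NELF-B peaks in 5, the exception being Hspa1a/Hspa1b. All 8 NELF-A peaks overlapped RNAPII, where 54.1% of all NELF-A peaks did. All 18 DRIP peaks overlapped RNAPII, where 23.1% of all DRIP peaks did, and 7 of the 18 overlapped NELF-A (15.9% of all). NELF-B overlapped 5 of the 8 NELF-A peaks (32.9% of all) and 4 of the 18 DRIP peaks (7.68% of all). The 6 NELF-B peaks all overlapped RNAPII (77.8% of the NELF-B list) and NELF-A (92.5%), and 5 of them overlapped DRIP (20.1%). Each lay wholly within NELF-A, as did 85.7% of all NELF-B peaks, so that nesting is close to the rule of the list. In the opposite direction 11 of 13 RNAPII peaks overlapped DRIP, against 22.2% of the list. All these peaks came from 6 windows, with 5 DRIP peaks each at Hspa8 and Hsp90ab1, and are not independent sites. Windows of other genes were not counted for comparison.

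NELF was found on fewer of the RNAPII peaks than DRIP, with NELF-A on 7 of 13 (72.3% of all RNAPII peaks) and NELF-B on 5 of 13 (38.2%, close to the members' share). The same 5 overlapped NELF-A, NELF-B and DRIP together, where 11.4% of the list did. Long RNAPII stretches were cut into several listed peaks at Hspa8 and Hsp90aa1, and NELF sat on 1 peak of each. A single RNAPII peak, in the Hspa1a/Hspa1b window, overlapped no other list, as 22.5% of RNAPII peaks did. Peaks of 5 kb or more made up 5 of the 13, against 5.30% of the list, and came 1 each from Hspa8, Hsp90ab1, Hsp90aa1, Dnajb1 and Hspa5. All 5 of these overlapped DRIP, where 75.3% of RNAPII peaks of that width did, and 3 of the 5 overlapped NELF-A (75.3%), NELF-B (57.5%) and all 3 other targets (51.3%). Of the 8 narrower ones 6 overlapped DRIP, against 19.2% of narrower RNAPII peaks in the list, but these 8 came from 3 windows and are not independent sites.

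**Figure D1:**
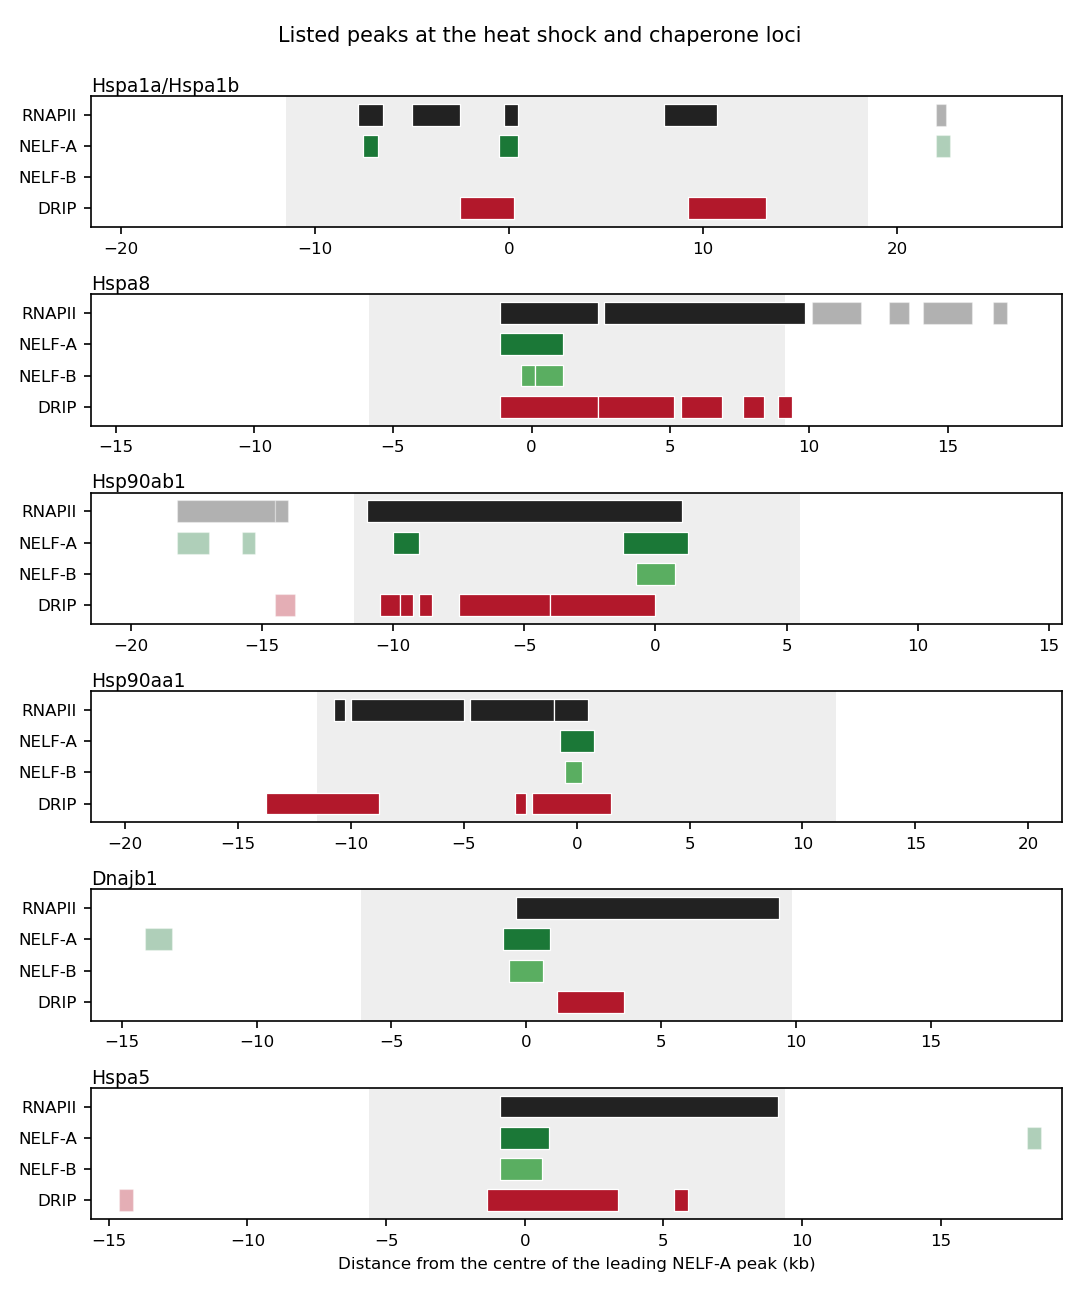
Listed peaks of the 4 targets (rows) at the 6 loci, drawn to scale against distance in kb from the centre of the highest-score NELF-A peak of each window. Grey shading marks the window, full colours its peaks, pale colours the peaks within 10 kb outside it, and thin white lines separate touching peaks. At 5 loci the leading NELF-A peak and NELF-B sit at 1 end of a long RNAPII stretch (Hsp90ab1 has a weak NELF-A peak near the other end as well). The Hspa1a/Hspa1b window has short RNAPII and NELF-A peaks and no NELF-B.

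The window of the inducible Hsp70 genes Hspa1a and Hspa1b, on chromosome 17 from 35085000 to 35115000, held 4 separate RNAPII peaks, 2 NELF-A peaks and 2 DRIP peaks. The RNAPII peaks ran from 35088751 to 35090000 with a score of 370, from 35091501 to 35094000 with 933, from 35096251 to 35097000 with 169, and the strongest, scoring 1363, from 35104501 to 35107250. It ranked 545 in the list (upper 7.06%), so RNAPII here was strong at its best site and in the lower part of the list at its weakest (rank 5421, upper 70.2%). NELF-A scored 18 from 35089001 to 35089750 (rank 6811, upper 63.2%) and 24 from 35096001 to 35097000 (rank 5360, upper 49.7%). The median score of the NELF-A list is 24, and both scores were below the leading NELF-A peak of each of the other 5 windows.

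No NELF-B peak was listed in this window. Of the 1763 NELF-A peaks in the list with scores from 18 to 24, 17.2% overlapped NELF-B (95% Wilson interval 15.6 to 19.1%, counting error only). At scores of 100 or more, the range of the leading NELF-A peak in the other 5 windows, 98.1% of 265 NELF-A peaks overlapped NELF-B. The lack of a listed NELF-B peak at the inducible Hsp70 genes thus went with a NELF-A score far below those of the other 5 windows, in a range where most NELF-A peaks had no NELF-B. How reads shared by the near-identical copies were treated is unknown, and any effect on these peaks was not tested.

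DRIP ranked higher within its list than NELF-A did in the same window. It had a peak from 35094001 to 35096750 with a score of 320 (rank 588, upper 5.86%) and one from 35105751 to 35109750 with 576 (rank 246, upper 2.45%). The first filled the whole 2250 bp between the RNAPII peaks that end at 35094000 and begin at 35096251, so DRIP was listed where RNAPII was not. The second overlapped the strongest RNAPII peak by 1500 of its 4000 bp. The RNAPII peak scoring 933 touched its neighbouring DRIP peak without overlap. From that RNAPII peak to the strongest one, the start shifted by 13000 bp and the end by 13250 bp. From the first DRIP peak to the second, the start shifted by 11750 bp and the end by 13000 bp. The similarity was limited to this RNAPII and DRIP pair, picked among RNAPII pairs whose start shifts ran from 2750 to 15750 bp. Both NELF-A peaks and the other RNAPII peaks lay in the lower part, and the upper part had no NELF-A peak. Any effect of reads shared by the near-identical copies on this pattern was not tested. RefSeq places Neu1, Hspa1b, Hspa1a and Hspa1l side by side, and which gene each peak belongs to was not determined.

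Hspa8, the constitutive Hsc70, had the highest RNAPII and NELF-A scores among these genes, though per base NELF-A was higher at Hsp90aa1. Its RNAPII lay on chromosome 9 in a peak from 40607751 to 40611250 with a score of 2252 (rank 320) and, after a gap of 250 bp, in one from 40611501 to 40618750 with 6840 (rank 85, upper 1.10%). Divided by width the longer peak reached 236 per 250 bp, rank 18 of 7718, and it was the highest of the 14 RNAPII peaks of its width. NELF-A formed 1 peak from 40607751 to 40610000 with a score of 205, rank 28 of 10782 (upper 0.260%).

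NELF-B at Hspa8 was listed as a pair of touching peaks inside the NELF-A peak, from 40608501 to 40609000 with a score of 7, the lowest in that list, and from 40609001 to 40610000 with 31 (rank 125, upper 3.18%). DRIP formed 5 peaks that followed the RNAPII stretch, with scores of 426, 301, 200, 62 and 39 in order of position. Signal of RNAPII, NELF-A and DRIP began at the same base of the 250 bp grid, and the first DRIP peak had exactly the ends of the first RNAPII peak. Such identical ends occurred for 0.311% of RNAPII peaks. Beyond the upper edge of the window, 4 more RNAPII peaks with scores of 389, 169, 406 and 109 followed within 10 kb, with no NELF or DRIP peak on that side.

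Hspa5, which encodes BiP, had a single RNAPII peak of 10000 bp on chromosome 2 from 34626751 to 34636750, which scored 5727 (rank 107, upper 1.39%). It was the highest-scoring of the 6 RNAPII peaks of that width. NELF-A and NELF-B began at the same base as RNAPII, NELF-A reaching 34628500 with a score of 150 (rank 75, upper 0.696%) and NELF-B reaching 34628250 with 43 (rank 54, upper 1.38%). DRIP ran from 34626251 to 34631000 with 728 (rank 158, upper 1.58%), and a small second DRIP peak from 34633001 to 34633500 had 39, near the lowest score of that list, 38. RefSeq lists Hspa5 on the plus strand in GRCm38.p6. NELF then lay at the upstream end of the RNAPII peak, provided that the orientation is the same in mm9, which was not tested.

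Hsp90ab1, the constitutive Hsp90, had the widest RNAPII peak of the set, 12000 bp on chromosome 17 from 45699501 to 45711500, which scored 5257 (rank 119, upper 1.54%). NELF lay mainly at its upper end, with a NELF-A peak from 45709251 to 45711750 scoring 165 (rank 59, upper 0.547%) and a NELF-B peak from 45709751 to 45711250 scoring 49. That NELF-B peak ranked 38 of 3925 (upper 0.968%), the best NELF-B rank in the 6 windows. A much weaker NELF-A peak, from 45700501 to 45701500 with 19, lay near the opposite end without NELF-B.

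Counted in listed bases, DRIP was slightly more extended at Hsp90ab1 than at any other locus here. Its 5 peaks there together held 9250 bp, against 9000 bp each at Hspa8 and Hsp90aa1. The strongest, from 45706501 to 45710500 with a score of 829, ranked 122 of 10031 (upper 1.22%) and reached into the NELF-A peak by 1250 bp. It touched the next, from 45703001 to 45706500 with 364 (rank 498). The other 3, of 62, 41 and 44, were short and lay around the weak NELF-A peak at the lower end. Within 10 kb below the window stood further RNAPII (1093 and 112), NELF-A (27 and 10) and DRIP (62) peaks, on the side where RefSeq gives Slc35b2 as the neighbouring gene.

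At Hsp90aa1, the inducible Hsp90, RNAPII was listed as 4 peaks on chromosome 12 between 111923751 and 111935000, with gaps of 250 bp or none. Their scores were 115, 2174, 1104 and 908 in order of position, and the best, from 111924501 to 111929500, ranked 341 (upper 4.42%). The last, from 111933501 to 111935000, was short but dense, with 151 per 250 bp, rank 109 of the list by score per base against 945 by score. It was this peak that held NELF, a NELF-A peak from 111933751 to 111935250 with 155 (rank 69, upper 0.640%) and a NELF-B peak from 111934001 to 111934750 with 30 (rank 139, upper 3.54%). DRIP lay at both ends of the stretch, from 111932501 to 111936000 with 547 (rank 270) over the NELF peaks and from 111920751 to 111925750 with 491 (rank 320) at the far end, where it crossed the window edge. Between them a DRIP peak from 111931751 to 111932250 scored 38, the lowest value of that list.

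Dnajb1, the Hsp40 co-chaperone, had 1 peak of each target, on chromosome 8. RNAPII ran from 86131751 to 86141500 with a score of 4437 (rank 142, upper 1.84%). NELF-A ran from 86131251 to 86133000 with 100 (rank 260, upper 2.41%) and NELF-B from 86131501 to 86132750 with 25 (rank 216, upper 5.50%), both reaching beyond the lower end of RNAPII. DRIP, from 86133251 to 86135750 with 290 (rank 678, upper 6.76%), began 250 bp after the end of NELF-A. At Dnajb1 NELF and DRIP were therefore next to each other without overlap, and at the other 5 loci at least 1 DRIP peak overlapped a NELF-A peak. RefSeq gives Dnajb1 the plus strand in GRCm38.p6, which puts NELF upstream if the orientation is the same in mm9.

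**Figure D2:**
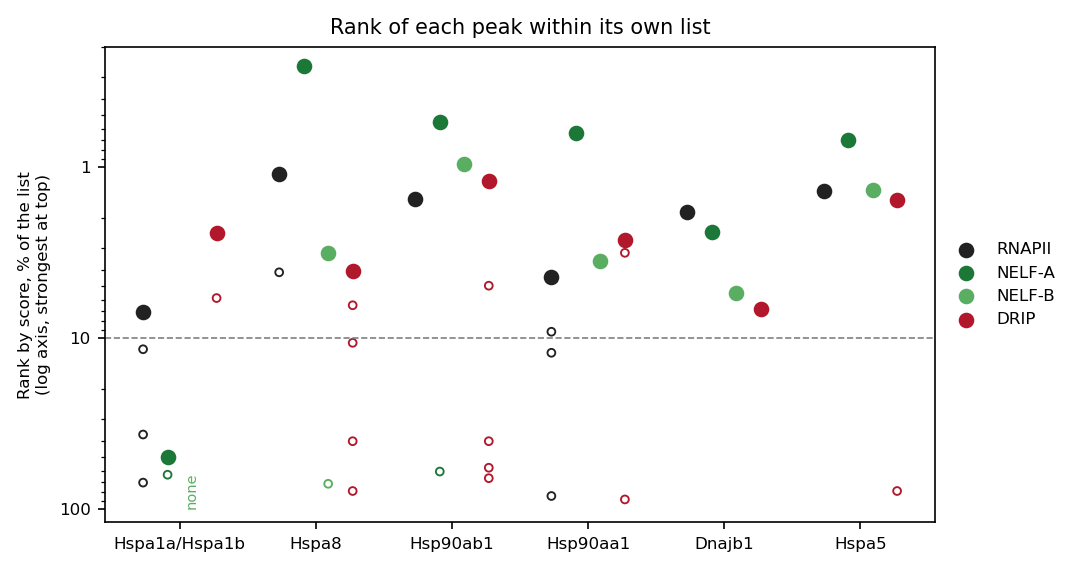
Rank by score of every member peak as a percentage of its own list (log axis, strongest at the top), with filled points for the best peak and open points for the other peaks of the same window and target. The dashed line marks the upper 10%, and of the best peaks only NELF-A at Hspa1a/Hspa1b, at 49.7%, lies below it, while Hspa1a/Hspa1b has no NELF-B peak.

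Ranked within each list, the best peak of a window was in the upper 10% of its list in 6 of 6 windows for RNAPII and for DRIP and in 5 windows each for NELF-A and NELF-B. By construction 10% of RNAPII, 10.2% of NELF-A, 11.1% of NELF-B and 10.1% of DRIP peaks fall there with ties counted, although the best of several peaks has more chances to do so. Counting every member peak, 8 of 13 RNAPII, 5 of 8 NELF-A, 5 of 6 NELF-B and 10 of 18 DRIP peaks were in the upper 10%. The best RNAPII peaks had a median rank in the upper 1.69%, those of NELF-A in the upper 0.668%, those of NELF-B in the upper 3.18% and those of DRIP in the upper 2.57%. By score, a NELF-A peak in the upper 1% of its list was present in 4 of the 6 windows, namely Hspa8, Hsp90ab1, Hsp90aa1 and Hspa5. A NELF-B peak in the upper 1% was present at Hsp90ab1 (0.968%), and no RNAPII or DRIP peak of any window was. This contrast depends on the score, since per base the longer Hspa8 RNAPII peak was in the upper 0.233%.

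The order of the genes differed between lists. RNAPII scores of the best peak descended from Hspa8 (6840) through Hspa5 (5727), Hsp90ab1 (5257), Dnajb1 (4437) and Hsp90aa1 (2174) to Hspa1a/Hspa1b (1363). NELF-A put Hspa8 (205) first as well, then Hsp90ab1 (165), Hsp90aa1 (155), Hspa5 (150), Dnajb1 (100) and Hspa1a/Hspa1b (24). NELF-B led with Hsp90ab1 (49) and Hspa5 (43), followed by Hspa8 (31), Hsp90aa1 (30) and Dnajb1 (25).

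DRIP had the Hsp90ab1 and Hspa5 windows at the top (829 and 728), Hspa1a/Hspa1b next (576), then Hsp90aa1 (547), Hspa8 (426) and Dnajb1 (290). With the scores of all DRIP peaks of a window summed, and touching peaks so counted together, the order was Hsp90ab1 (1340), Hsp90aa1 (1076), Hspa8 (1028), Hspa1a/Hspa1b (896), Hspa5 (767) and Dnajb1 (290). The inducible Hsp70 window was thus lowest for RNAPII and NELF-A by score and in the middle for DRIP, and Hsp90ab1 led and Dnajb1 came last for DRIP in both orders. With no replicate lists, neighbours in these orders, such as Hsp90aa1 and Hspa5 for NELF-A (155 and 150), cannot be called different. The windows most alike in their ranks over the 4 lists were Hsp90ab1 and Hspa5, whose best-peak percentages differed by a root mean square of 0.111 on the log10 scale, followed by Hsp90aa1 and Hspa5 at 0.345. The Hspa1a/Hspa1b window, over the 3 lists it has, was furthest from the others, at 0.868 to 1.40. The largest part of this window's distance came from NELF-A (upper 49.7%, against 0.260% to 2.41% in the others). Its DRIP rank lay within the range of the others. Any effect of the unknown treatment of reads shared by its near-identical copies on its scores and ranks was not tested.

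Score rises with width in each list, so the order was also read per base. For RNAPII the score per 250 bp of the best peak was 236 at Hspa8 (upper 0.233%), 143 at Hspa5 (1.67%), 124 at Hspa1a/Hspa1b (2.94%), 114 at Dnajb1 (4.50%), 110 at Hsp90ab1 (5.27%) and 109 at Hsp90aa1 (5.51%). Among these peaks, each the highest-scoring of its window, Hspa1a/Hspa1b moved from the last to the third place. Its low RNAPII rank by score thus went with a peak of 2750 bp where the others had 5000 to 12000 bp. A shorter, lower-scoring RNAPII peak at Hsp90aa1 had 151 per 250 bp (upper 1.41%), above the best peaks of Hspa5 and Hspa1a/Hspa1b. The places in this order therefore depend on choosing the peak by score. For NELF-A Hsp90aa1 came first at 25.8 per 250 bp (upper 0.390%), before Hspa8 at 22.8 and Hspa5 at 21.4, and Hspa1a/Hspa1b stayed last at 6.00 (53.8%). For DRIP the best peak had 51.8 per 250 bp at Hsp90ab1, 39.1 at Hsp90aa1, 38.3 at Hspa5, 36 at Hspa1a/Hspa1b, 30.4 at Hspa8 and 29 at Dnajb1. Among peaks of exactly equal width the median best rank was much less extreme, in the upper 16.7% (RNAPII), 8.54% (NELF-A), 8.62% (NELF-B) and 22.7% (DRIP). For RNAPII the sets of equal width were small, with 5 peaks for Hsp90ab1 and 6 each for Dnajb1 and Hspa5. In such small sets even the first place is a large percentage, so part of this change comes from set size.

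**Figure D3:**
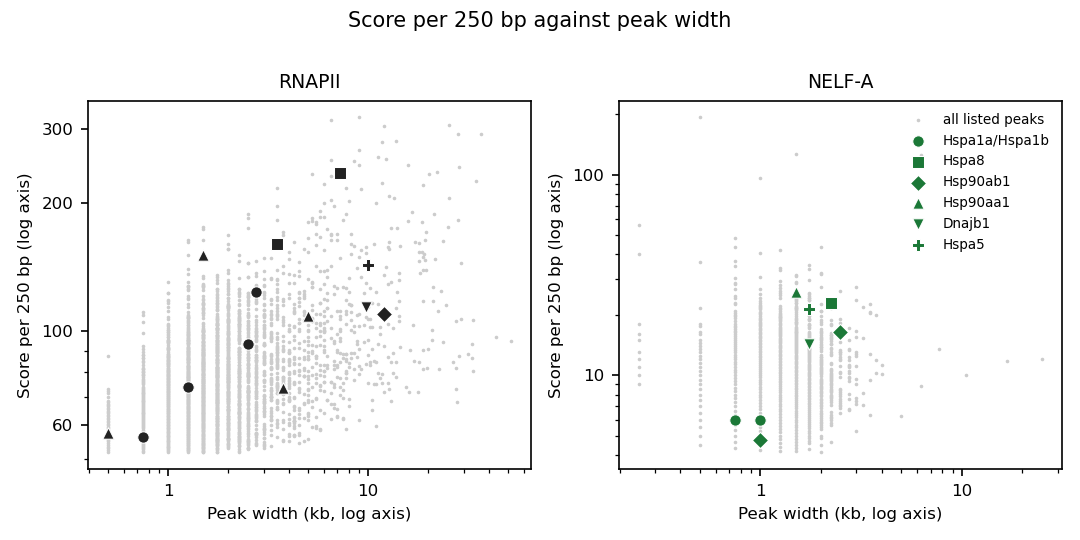
Score per 250 bp against peak width, both on log axes, for all listed RNAPII (left) and NELF-A (right) peaks in grey and the member peaks by window symbol. The Hspa8 RNAPII peak at 236 lies near the top of the cloud, and the NELF-A peaks of Hspa1a/Hspa1b, at 6.00, lie near the middle of the list (53.8%) and below the leading peaks of the other windows.

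RNAPII peaks separated by 250 bp or less were then joined into stretches, which gave 1 stretch of 13000 bp at Hspa8 (with a peak from just outside the window), 12000 bp at Hsp90ab1, 11250 bp at Hsp90aa1, 10000 bp at Hspa5 and 9750 bp at Dnajb1. All 5 stretches held NELF-A, NELF-B and DRIP, as did 55.4% of the 442 RNAPII stretches of 5 kb or more in the list. Taken singly, NELF-A was found in 79.6% of those 442, NELF-B in 62.4% and DRIP in 75.8%. The leading NELF-A peak was centred within the outer 25% in all 5, at the lower end at Hspa8, Hspa5 and Dnajb1 and at the upper end at Hsp90ab1 and Hsp90aa1. This was so in 91.8% of the 352 such stretches with NELF-A, so the end position is the usual one in this list.

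DRIP covered 77.1% of the stretch at Hsp90ab1, 69.2% at Hspa8, 47.5% at Hspa5, 44.4% at Hsp90aa1 and 25.6% at Dnajb1. The median over the 442 stretches was 27.1%, so 4 of the 5 lay above it and Dnajb1 just below. NELF-A covered much less, from 11.1% at Hsp90aa1 to 27.1% at Hsp90ab1, around the median of 13.8%. NELF-B covered from 6.67% to 15.0%, all above a median of 5.74%. DRIP thus covered more than NELF-A or NELF-B in all 5 stretches, and the medians over the 442 stretches had the same order. The difference was smallest at Dnajb1 (25.6% for DRIP and 12.8% for NELF-A). The medians include stretches without any peak of the target. The members' DRIP cover was reached or passed by 7.47% (Hsp90ab1) to 52.5% (Dnajb1) of stretches. For NELF-B this share ran from 17.9% (Hspa5) to 45.9% (Hsp90aa1).

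The side of the stretch that carried NELF-A had the higher DRIP cover at all 5 loci, as in 64.4% of 323 stretches with NELF-A in the outer 25%. The contrast was sharpest at Dnajb1, with 51.3% of the NELF-A side and 0% of the far side, and at Hspa5, with 85.0% and 10%. Hspa8 had 96.2% and 42.3%. At Hsp90aa1 (53.3% and 35.6%) and Hsp90ab1 (83.3% and 70.8%) DRIP was found on both sides to a more similar extent. With 5 loci this is given as a description.

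**Figure D4:**
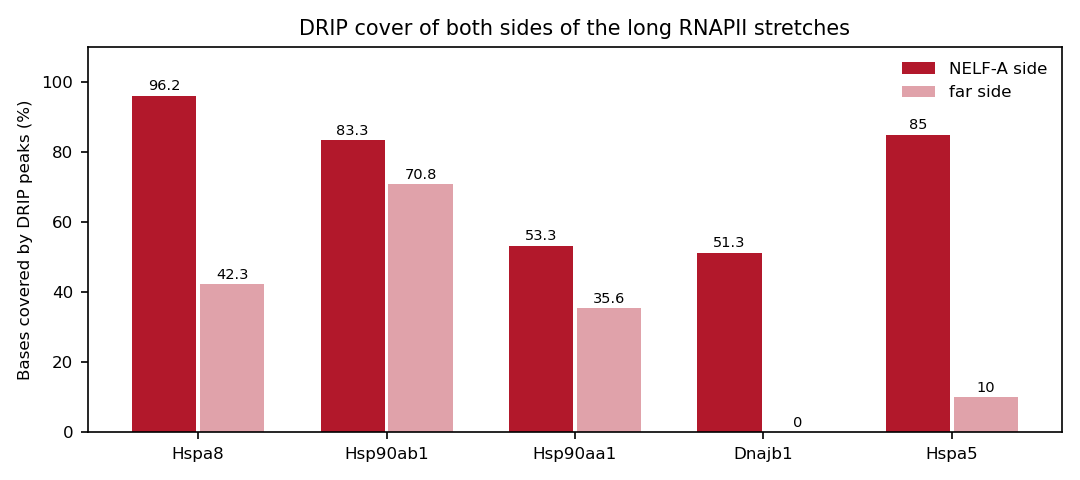
Percentage of bases covered by DRIP peaks on the side of each long RNAPII stretch that carries the leading NELF-A peak (dark bars) and on the far side (pale bars), each side ending at the midpoint. The dark bar is the higher at all 5 loci, from 51.3% against 0% at Dnajb1 to 83.3% against 70.8% at Hsp90ab1.

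Joining overlapping and touching peaks of all lists gave 9 regions in the windows, all with RNAPII. Of these 9, 5 held all 4 targets, 1 in each window but Hspa1a/Hspa1b, against 4.99% of all 19136 regions and 13.2% of those with RNAPII. The 5 regions measured 6250 bp at Hsp90aa1, 10250 bp at Dnajb1, 10500 bp at Hspa5, 11000 bp at Hspa8 and 12250 bp at Hsp90ab1, against a median of 3500 bp over the 955 regions with all 4. At Hspa1a/Hspa1b the peaks fell into 3 regions with 2, 3 and 2 targets. Outside the windows 14 more peaks lay within 10 kb of 5 of them, and none of these was a NELF-B peak.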

How the data were processed

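ChIP-seq for RNAPII, NELF-A and NELF-B and DRIP-seq gave 1 deposited peak list each. Reads were aligned with BWA to mm9, per the submitters' processing notes. The caller of the peaks, its settings and a control library, if any, are not stated there. NELF libraries, per the labels' protocols, had 18 PCR cycles from 0.2 ng, RNAPII 15 from 1 ng and DRIP 15. The deposited lists give chromosome, first and last base and a whole number, the authors' score, with no stated unit. Sequencing depth is unknown. Peaks were kept as deposited, ranked within 1 list (ties share the better rank) and called shared at 1 bp of overlap, with Python 3.11.15, pandas 2.3.3 and SciPy 1.17.1. Interval functions were tested on simulated peaks. Joining RNAPII peaks with gaps of 250 bp or less was chosen after the data were seen, as was the measure of likeness. Every member and each of its peaks is named, with peaks within 10 kb outside a window. The members and lists were chosen with earlier results of these data known. Other chaperone genes and cell type markers were to be placed only with mm9 gene positions, which were not used here, and no protein sequences were compared. RefSeq promoters matched 4 of 7 symbols. Alternatives were wider windows, other sharing rules, joined peaks, upper scores, other ranks and leaving out the X chromosome or the Hspa1a/Hspa1b window.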

Additional observations from a re-analysis of the deposited data

How the results depend on the processing

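Of 84 values recomputed for 16 results, 69 stayed within 1.5 times the reported count or, for median ranks, within a Wilson interval. That interval takes the rank as a count out of the whole list. Its width therefore follows the length of the list and not the spread among the windows, so it does not measure how stable a rank is. Widening the windows by 10 kb raised the peaks to 20 for RNAPII and 13 for NELF-A. With peaks reduced to their central 500 bp, 3 member RNAPII peaks overlapped NELF-A, 2 NELF-B and 4 DRIP, and 1 window had all 4 targets joined, since that setting keeps only the middle of long peaks. By score per base the median best rank was in the upper 3.72% (RNAPII), 1.74% (NELF-A) and 2.97% (DRIP). Among peaks of exactly equal width it was 16.7% (RNAPII), 8.54% (NELF-A), 8.62% (NELF-B) and 22.7% (DRIP), where some widths have few peaks. Joining touching peaks gave 2.04% for NELF-B and 2.21% for DRIP. Leaving out the Hspa1a/Hspa1b window, an alternative chosen after seeing the data, moved none of the 16 results by that measure. No replicate could be left out with 1 list per target. No paired analysis was possible because each target has 1 list and no test was made. Intervals cover counting error only.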
